A study of Mus musculus with 32 samples.

Results

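The 10 genes described here make up the period and output arms of the circadian clock: the period repressors Per1, Per2 and Per3, the transcription factors Dbp, Tef and Hlf, the nuclear receptors Nr1d1 and Nr1d2, and the repressors Ciart and Bhlhe41. They are 10 of the 54532 genes in the deposited count table of mouse kidney RNA, matched there by gene name, and all 10 passed the filter on low counts in every comparison. They were chosen by their measured levels at Day 2, Day 3 and Day 5 against Day 0, for a joint rise after Day 0. Each later day against Day 0 is therefore given as a description without a test for these 10 genes, and they were tested only between later days, between the sexes, and on the difference of the sexes in their distance from Day 0.

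In the mouse clock, CLOCK or its paralogue NPAS2 pairs with BMAL1, the product of Arntl, and the pair binds E-box sequences and activates the period, cryptochrome, Nr1d and Dbp genes. The period and cryptochrome proteins, CIART and the DEC proteins encoded by Bhlhe40 and Bhlhe41 repress that activity, and the REV-ERB receptors encoded by Nr1d1 and Nr1d2 repress Arntl and Npas2 through ROR elements. DBP, TEF and HLF activate target genes through D-boxes and carry the rhythm to metabolism and transport. In kidney, as in other tissues, these transcripts rise and fall over the day, so that a level depends on the hour at which the tissue was taken.

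Kidney RNA was sequenced from 32 wild-type mice of the inbred strain C57bl/6, in 8 groups of 4 mice, to follow acute kidney injury over time and to compare the sexes. Each sex was sampled on 4 days, numbered 0, 2, 3 and 5 from 1 intraperitoneal dose of cisplatin at 20 mg/kg. Cisplatin is a platinum drug that damages kidney tubules, and it was given to mice acquired at 6 to 8 weeks of age. The labels list no treatment for the Day 0 males and cisplatin for the Day 0 females, while the study's text describes Day 0 animals as healthy. The hour of collection is not given in the sources used here and no vehicle-injected mice were analysed here, so the day after injection, the injection itself and the hour of collection cannot be told apart.

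Total counts lay between 16502107 and 35961325 per library. Mitochondrial transcripts took 6.46% to 23.97% of the counts in Day 0 males and 4.49% to 19.7% in Day 0 females, between 4.87% and 14.0% at Day 2 and Day 3, 42.5% to 79.8% in Day 5 males and 9.302% to 77.9% in Day 5 females. In the library given by its label as mouse 1 of male Day 5, 4153 reads were counted to Xist, a transcript of the inactive X chromosome, beside 387 to 4 Y-linked genes, which goes against its label. What it moved in the Day 5 males is given without it beside the counts, single genes, list calls, order per length and correlations below. Fewer reads of the other sex were also counted in other libraries: 5 to 221 Y-linked reads in the 4 Day 0 females against 0 in every later female, and 0 to 242 Xist reads in Day 0 males and 59 to 260 in the other 3 Day 5 males against 0 to 5 in Day 2 and Day 3 males. All 6 markers of kidney tubule cells were counted in every library, with a summed level of 2189 to 10250 CPM, the count scaled to library size. At Day 5 that summed level lay below Day 0 without overlap in males (2189 to 5742 against 7000 to 9756 CPM) and in females (3751 to 6949 against 7924 to 8746 CPM). Slc34a1 lay below Day 0 in males (181 to 1870 against 4976 to 5690 CPM) and in females (946 to 3360 against 3906 to 5788 CPM). Lrp2 also did so in males and Slc12a3 in females. The other tubule markers overlapped, with male Aqp2 at 673 to 1347 against 295 to 721 CPM. The 5 erythroid markers summed to between 411 and 2653 CPM at Day 0 and to between 0.811 and 163.5 CPM at Day 2 and Day 3, where Hba-a2 was at 0 in all 4 males and Hbb-bt in 3 males of Day 3. The 6 adipocyte markers summed to between 498 and 2717 CPM at Day 0 and to between 267 and 768 CPM at Day 2 and Day 3. They lay below Day 0 without overlap in Day 3 males (267 to 348 against 498 to 2717 CPM) and in Day 2 and Day 3 females (390.5 to 768 against 798 to 1606 CPM). In females so did 6 leukocyte markers (49.2 to 53.3 CPM at Day 0, 16.7 to 25.3 at Day 2 and 28.5 to 34.6 at Day 3). At Day 5, 5 adrenal cortex markers lay above Day 0 without overlap in males (31.6 to 160.5 against 0.73 to 17.55 CPM) and in females (509 to 1365 against 3.02 to 323.7 CPM). The sum of 4 hepatocyte markers lay below Day 0 in males (7.897 to 33.2 against 74.3 to 275.0 CPM). Of these 4, Ttr lay below Day 0 (3.55 to 27.2 against 72.0 to 267.1 CPM), while Alb, Apoa1 and Serpina1c overlapped. Female Day 0 mouse 2 held 9330 CPM of the hepatocyte markers against 46.9 to 330.0 CPM in its group mates. Erythroid levels at Day 2 and Day 3 thus lay below those of Day 0 in both sexes, while at Day 5 they ran from 204.3 to 5501 CPM in males and 14.4 to 1451 CPM in females and overlapped with Day 0. The part of these marker levels in the results was not tested.

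The promoter sequences show which of the 10 genes carry the clock's own binding motifs close to a start. RefSeq windows of 300 bases (GRCm38.p6, 250 bases before and 50 after an annotated start) were held for 9 of the 10 genes as 11 windows, with 2 each for Per1 and Tef. Per2 had no window. The E-box CACGTG, the site of CLOCK and BMAL1, stood in 5 of the 11 windows, those of Per1 (1 of its 2), Tef (both), Ciart and Bhlhe41, and in 7.15% of all 32851 windows. The related letters CACGTT stood in 1 of the 11 windows, that of Nr1d1, and in 4.68% of all. The D-box TTANGTAA stood in 1, that of Per3, which held it at 2 places, and in 2.32% of all. The cAMP response element TGACGTCA stood in 1, that of Hlf, and in 1.79% of all, and the ROR element (TAGGTCA or TGGGTCA) in 0 of the 11 and in 6.45% of all. The windows of Dbp and Nr1d2 held none of these letters. Both strands were searched, no matches of different motifs overlapped, and a match describes these letters only. The stretches that hold the matches follow, 5′ to 3′ on the gene's strand with the motif in capitals:
Per1, E-box at -166 from the start, chr11:69098772-69098799, plus strand: gcacccaagtcCACGTGcagggatgtgt
Tef, first start, E-box at -127, chr15:81802535-81802562, plus strand: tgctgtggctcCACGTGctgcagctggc
Tef, second start, E-box at -138, chr15:81811265-81811292, plus strand: acctggcccagCACGTGtctacatcgtt
Ciart, E-box at -116, chr3:95882328-95882355, minus strand: gcatctagagtCACGTGttgccggtaag
Ciart, E-boxes at -58 and -44, chr3:95882256-95882297, minus strand: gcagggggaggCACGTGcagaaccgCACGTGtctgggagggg
Bhlhe41, E-box at -153, chr6:145865557-145865584, minus strand: ggtacgttccgCACGTGagctgggtgct
Nr1d1, CACGTT read on the other strand at -28, chr11:98775389-98775416, minus strand: gcacagatctcAACGTGccggctgctgg
Per3, D-box at -205, chr4:151044852-151044881, minus strand: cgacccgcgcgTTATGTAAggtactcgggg
Per3, D-box at -158, chr4:151044805-151044834, minus strand: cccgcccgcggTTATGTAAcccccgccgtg
Hlf, cAMP response element at -9, chr11:90390918-90390937, minus strand: ggtgcgggcccTGACGTCAc

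Positions count the first capital letter from the annotated start. Both Tef starts and the Per1 start lie inside the span that the count table gives for the gene (Tef chr15:81802421-81826863, Per1 chr11:69095217-69109960), so their windows are upstream of one start and within the gene of another. Ciart thus carried 3 E-boxes in its window, and Per3, a period gene, carried 2 copies of the site that DBP, TEF and HLF bind.

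Among the period genes, whose products pair with the cryptochromes to shut down CLOCK and BMAL1, Per1 (chr11, ENSMUSG00000020893) differed most between the sexes at Day 0. In males Per1 stood at 13.6, 12.3, 17.3 and 13.9 CPM at Day 0, at 75.3, 84.4, 69.01 and 84.2 at Day 2, at 98.1, 39.3, 66.05 and 43.8 at Day 3 and at 83.5, 49.6, 81.4 and 35.1 at Day 5. All 12 later males lay above all 4 Day 0 males, by log2 fold changes of 2.46 ± 0.16 (SE), 2.11 ± 0.30 and 2.19 ± 0.29 with n = 4 a group. In bulk tissue of this kind, fewer cells of a type and less RNA per cell cannot be told apart. In females Per1 stood at 45.3, 44.9, 51.9 and 75.6 CPM at Day 0, at 125.5, 90.9, 92.6 and 80.1 at Day 2, at 68.7, 32.5, 69.2 and 75.6 at Day 3 and at 80.8, 51.4, 98.7 and 109.1 at Day 5. The Day 2 females lay above the Day 0 females, while Day 3 and Day 5 overlapped with Day 0, and the log2 fold changes were 0.84 ± 0.25, 0.16 ± 0.29 and 0.64 ± 0.27.

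Per2 (chr1, ENSMUSG00000055866), whose protein is the best known period repressor, stood at 4.67, 4.402, 3.39 and 6.16 CPM in Day 0 males and at 35.9, 40.3, 45.7 and 40.7 in Day 2 males, with no overlap. Day 3 males held 25.8 to 38.7 CPM and Day 5 males 30.8, 12.03, 23.9 and 5.896, where mouse 4 fell within the Day 0 range. The male log2 fold changes against Day 0 were 3.14 ± 0.20, 2.75 ± 0.21 and 2.03 ± 0.46 at Day 2, Day 3 and Day 5. In females Per2 stood at 4.35, 3.52, 2.35 and 13.8 CPM at Day 0 and at 27.3, 29.1, 26.6 and 26.9 at Day 2, so that Day 0 mouse 4 lay well above its 3 group mates and below all Day 2 females. The females then held 11.6 to 35.7 CPM at Day 3 and 16.7 to 33.2 CPM at Day 5. The female log2 fold changes were 2.19 ± 0.48, 2.16 ± 0.58 and 2.07 ± 0.51.

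Per3 (chr4, ENSMUSG00000028957), the period gene with D-boxes upstream, stood at 6.24, 4.65, 2.66 and 10.4 CPM in Day 0 males, 47.6, 46.1, 59.6 and 38.5 in Day 2 males, 40.9, 39.7, 43.5 and 38.1 in Day 3 males and 36.6, 17.1, 24.8 and 11.9 in Day 5 males. All 12 later males lay above the Day 0 males, and the Day 3 males were the most even of the groups, with a mean of 40.6 ± 2.27 (SD, n = 4). In females Per3 stood at 5.13, 5.72, 1.96 and 24.8 CPM at Day 0, 27.4, 28.1, 26.9 and 40.97 at Day 2, 25.9, 19.9, 24.7 and 28.6 at Day 3 and 28.3, 23.7, 18.1 and 34.1 at Day 5. Day 0 mouse 4 alone made the female ranges overlap at Day 3 and Day 5. The log2 fold changes against Day 0 were 3.02 ± 0.38, 2.77 ± 0.36 and 1.99 ± 0.45 in males and 1.701 ± 0.64, 1.38 ± 0.64 and 1.46 ± 0.65 in females. The span of Per3 lies wholly inside that of Camta1 on the same strand, so reads of the 2 genes may not be told apart in the count.

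**Figure D1:**
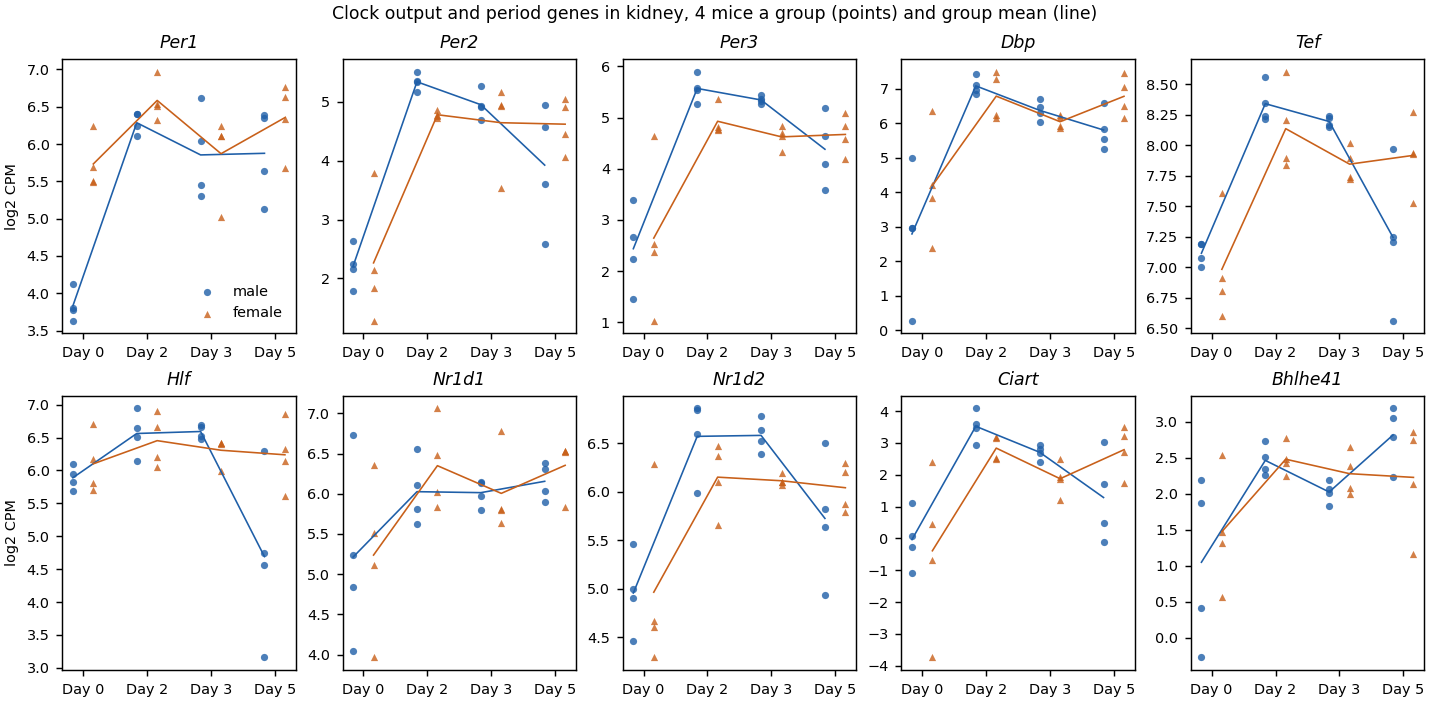
Level of each gene as log2 CPM (vertical axis) by day (horizontal axis), with 1 point a mouse, circles for males, triangles for females and a line through the group means. Male Per1 starts far below female Per1 at Day 0, and the Day 5 males spread widely for Per2, Tef, Hlf and Ciart.

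Dbp (chr7, ENSMUSG00000059824), a D-box activator and one of the most rhythmic transcripts known, had the widest range of the 9 genes counted in every library, from 1.13 to 179.8 CPM. In males it stood at 7.65, 7.65, 1.13 and 31.6 CPM at Day 0, at 170.5, 114.4, 137.7 and 123.3 at Day 2, at 64.7, 88.5, 78.4 and 102.9 at Day 3 and at 96.5, 56.5, 37.5 and 46.6 at Day 5. No later male overlapped with Day 0, although the Day 0 males themselves ran from 1.13 to 31.6 CPM. In females it stood at 14.1, 18.4, 5.09 and 81.6 CPM at Day 0, at 179.8, 74.8, 70.05 and 154.0 at Day 2, at 59.8, 71.8, 58.02 and 74.6 at Day 3 and at 70.4, 89.3, 173.7 and 130.9 at Day 5. Day 0 mouse 4 lay above 2 of the Day 2 females, all 4 of Day 3 and 1 of Day 5, while the other 3 Day 0 females lay below them all. The log2 fold changes were 3.52 ± 0.78, 2.81 ± 0.77 and 2.39 ± 0.76 in males and 1.998 ± 0.76, 1.13 ± 0.69 and 1.95 ± 0.75 in females. Without Day 0 mouse 4 of the same sex they were 4.67, 3.96 and 3.501 in males and 3.25, 2.38 and 3.21 in females, and without female Day 0 mouse 3 the Day 3 female value was 0.79.

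Tef (chr15, ENSMUSG00000022389), a D-box activator of the same family, was the most even member in Day 0 males, at 145.7, 146.1, 134.6 and 128.2 CPM, and stood at 111.6, 120.3, 96.96 and 195.4 CPM in Day 0 females. Males held 296.9, 325.6, 376.8 and 302.4 CPM at Day 2 and 298.1, 284.3, 286.4 and 302.7 at Day 3, all above Day 0. At Day 5 they held 249.9, 147.4, 151.8 and 94.2 CPM, where mouse 1 lay above the Day 0 range, mouse 4 below it and the others just above it. Females held 388.9, 237.7, 228.9 and 294.8 CPM at Day 2, 211.3, 213.9, 237.9 and 258.9 at Day 3 and 243.9, 183.7, 245.1 and 309.7 at Day 5. Only at Day 5 did 1 female, mouse 2, fall below the highest Day 0 female. The log2 fold changes were 1.24 ± 0.15, 1.08 ± 0.11 and 0.27 ± 0.28 in males and 1.13 ± 0.30, 0.80 ± 0.24 and 0.90 ± 0.28 in females. Without the library with Xist, mouse 1, the Day 5 male value was -0.0017.

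Hlf (chr11, ENSMUSG00000003949), the third D-box activator, was the member that followed the others least over the 32 libraries. Males held 61.6, 68.7, 56.5 and 51.4 CPM at Day 0, 90.7, 100.6, 123.4 and 70.6 at Day 2 and 89.2, 92.5, 103.8 and 101.1 at Day 3. At Day 5 they held 78.8, 23.5, 26.8 and 8.84 CPM, so 3 of the 4 males lay below all Day 0 males and mouse 1, the library with Xist, above them. Its log2 fold changes were 0.71 ± 0.19, 0.70 ± 0.12 and -0.73 ± 0.51 in males. The Day 5 value was -1.52 without that library and -0.41 without mouse 4. Females ran from 52.01 to 104.6 CPM at Day 0 to 66.5 to 119.2 CPM at Day 2, 63.6 to 85.4 CPM at Day 3 and 49.1 to 115.7 CPM at Day 5, all overlapping with Day 0, with log2 fold changes of 0.33 ± 0.28, 0.15 ± 0.24 and 0.14 ± 0.30.

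Nr1d1 (chr11, ENSMUSG00000020889) and Nr1d2 (chr14, ENSMUSG00000021775) encode the heme-binding repressors REV-ERB alpha and beta. Nr1d1 ran over 37.7, 28.6, 16.4 and 106.1 CPM in Day 0 males and 34.5, 45.6, 15.5 and 82.1 in Day 0 females. Its highest Day 0 male, mouse 4, lay above every later male, whose values ran from 49.4 to 93.8 CPM over Day 2, Day 3 and Day 5. Nr1d1 overlapped with Day 0 in every comparison, and its log2 fold changes were 0.52 ± 0.51, 0.46 ± 0.49 and 0.69 ± 0.48 in males and 0.95 ± 0.45, 0.59 ± 0.46 and 0.90 ± 0.42 in females. Without male Day 0 mouse 4 the male values were 1.30, 1.24 and 1.44, and without male Day 0 mouse 3 they were 0.21, 0.17 and 0.40. Nr1d2 was more even in Day 0 males. Males held 29.9, 31.96, 21.9 and 43.95 CPM at Day 0, 116.0, 96.2, 114.5 and 63.3 at Day 2, 83.4, 98.9, 91.6 and 110.1 at Day 3 and 90.7, 49.6, 56.6 and 30.5 at Day 5. Females held 24.4, 19.5, 25.4 and 77.7 CPM at Day 0, 50.5 to 88.6 CPM at Day 2, 68.3, 67.03, 68.2 and 72.9 at Day 3 and 55.2 to 78.6 CPM at Day 5. Day 2 and Day 3 males lay above Day 0, and among females Day 0 mouse 4 lay within or above the later values. The log2 fold changes of Nr1d2 were 1.62 ± 0.26, 1.59 ± 0.20 and 0.90 ± 0.32 in males and 0.97 ± 0.42, 0.90 ± 0.41 and 0.85 ± 0.41 in females.

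Ciart (chr3, ENSMUSG00000038550), also known as CHRONO, binds BMAL1 and represses the clock pair, and was the member nearest to the limit of detection. Males held 0.7597, 0.4002, 0.985 and 2.07 CPM at Day 0, 16.97, 11.04, 12.01 and 7.51 at Day 2, 5.21 to 7.55 CPM at Day 3 and 8.17, 1.34, 3.22 and 0.842 at Day 5, where the lowest library rests on 6 counts. Females held 0.551, 1.29, 0 and 5.23 CPM at Day 0, 8.96, 5.66, 5.62 and 8.73 at Day 2, 2.21 to 5.56 CPM at Day 3 and 3.25 to 11.1 CPM at Day 5. Day 0 female mouse 3 had 0 counts, which allows up to 0.147 CPM at a floor of 3 counts, counting error only. Day 2 males and females lay above Day 0, as did Day 3 males, and mouse 4 of each sex was the highest of its Day 0 group. The log2 fold changes were 3.51 ± 0.48, 2.63 ± 0.44 and 1.78 ± 0.75 in males and 2.003 ± 0.95, 1.06 ± 0.99 and 2.06 ± 1.01 in females. The Day 5 male value was 0.84 without the library labelled male Day 5 mouse 1.

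Bhlhe41 (chr6, ENSMUSG00000030256), the E-box repressor DEC2, had the lowest level per length of the 10 genes in every group. Males held 1.25, 0.7503, 4.49 and 3.57 CPM at Day 0, 6.58, 4.99, 5.62 and 4.699 at Day 2, 3.46, 3.94, 4.48 and 4.12 at Day 3 and 6.83, 8.17, 9.03 and 4.63 at Day 5. Day 2 and Day 5 males lay above Day 0 and the Day 5 males also lay above the Day 3 males. Females held 1.395, 2.42, 2.69 and 5.72 CPM at Day 0, 4.66 to 6.75 CPM at Day 2, 3.91 to 6.18 CPM at Day 3 and 2.17 to 7.17 CPM at Day 5, with overlap throughout. The log2 fold changes were 1.12 ± 0.51, 0.65 ± 0.51 and 1.55 ± 0.55 in males and 0.85 ± 0.41, 0.65 ± 0.42 and 0.73 ± 0.50 in females. Dbp, Tef, Nr1d1, Ciart and Bhlhe41 each overlap an annotated gene on the opposite strand (Sphk2, Gm17597, Thra, C920021L13Rik and Gm43909), and the strand setting of the count is not given in the sources used here, so reads in the shared stretch, from 193 bases for Tef to 3749 for Ciart, cannot be told apart.

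Per length, the order of levels shifted between groups. CPM per kilobase put Tef first in Day 0 males (17.6 ± 1.12, SD, n = 4), with Nr1d1 (15.3 ± 13.1) and Hlf (8.91 ± 1.104) next, and Dbp in the fifth place (4.01 ± 4.48). At Day 2 Dbp (45.6 ± 8.22) and Tef (41.4 ± 4.63) led in males, and did so in females (39.98 ± 18.6 and 36.6 ± 9.35), in both cases closer to each other than their spread. In Day 5 males Nr1d1 (23.4 ± 3.66), Tef (20.4 ± 8.25) and Dbp (19.8 ± 8.68) led, again within their spread. With the library labelled mouse 1 left out, Nr1d1 (22.13 ± 3.34, SD, n = 3), Tef (16.7 ± 4.08) and Dbp (15.7 ± 3.16) led in the same order, and Ciart (0.797 ± 0.556) stood below Bhlhe41 (1.08 ± 0.35). Per1 stood at 2.53 ± 0.378 per kilobase in Day 0 males and 9.66 ± 2.58 in Day 0 females, while Per2, Per3, Ciart and Bhlhe41 filled the 4 lowest places of every group. Per3 and Ciart changed places between groups and lay within their spreads of each other in Day 0, Day 2 and Day 5 males and in the same days of females.

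Set against Day 0 together, all 10 genes had a positive log2 fold change at each later day in both sexes, except Hlf in Day 5 males. The median over the 10 genes was 2.04 at Day 2, 1.85 at Day 3 and 1.67 at Day 5 in males and 1.05, 0.85 and 0.90 in females, beside medians between 0.02 and 0.04 over all genes tested. In males, 9 of the 10 genes lay above every Day 0 mouse in every Day 2 mouse (all genes tested: 12.3%), 8 at Day 3 (20.9%) and 4 at Day 5 (11.2%). In females the counts were 5 at Day 2 (8.66%), 1 at Day 3 (10.1%) and 1 at Day 5 (4.97%). The genes were chosen for this contrast, so nothing is read from these counts.

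**Figure D2:**
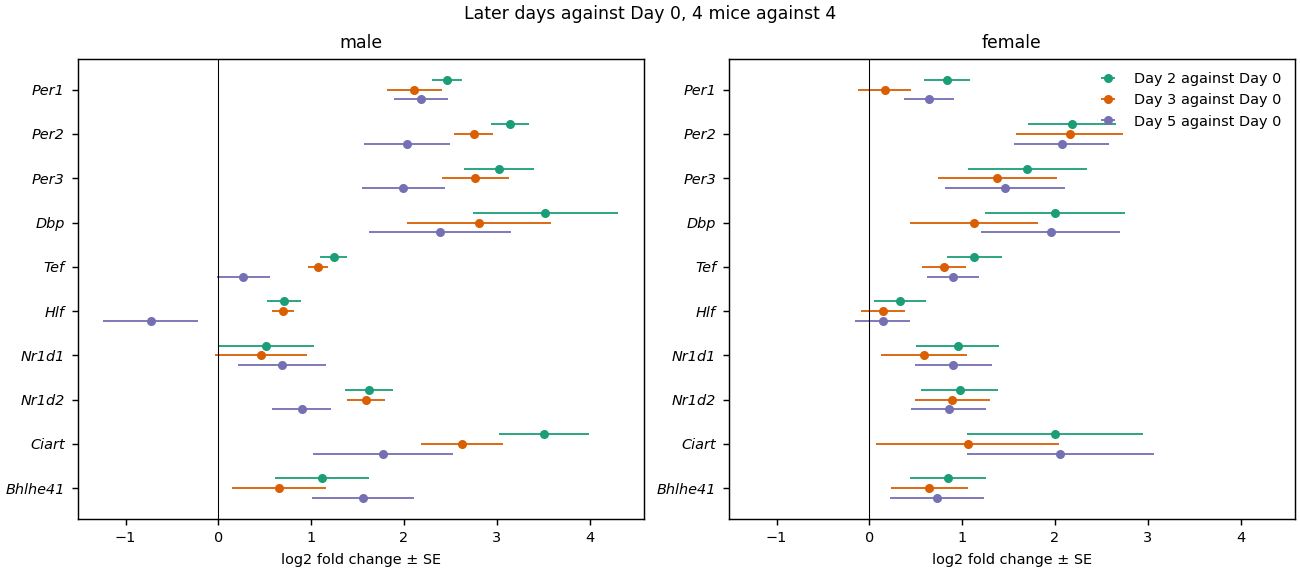
Log2 fold change of each gene (horizontal axis, bars of 1 SE) at Day 2, Day 3 and Day 5 against Day 0 in males (left) and females (right), 4 mice against 4. Only Hlf in Day 5 males lies below 0, at -0.73, and the longest bars are those of Dbp in males and of Ciart in females.

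Mouse 4 of Day 0 stood apart in both sexes. In females it held the highest Day 0 value of all 10 genes, at 1.6 to 8.52 times the mean of the other 3 mice (median 3.00), and in males of 6 genes, at 0.826 to 5.76 times that mean (median 1.61). Over the 18220 genes that passed the filter across the 32 libraries, mouse 4 was the highest in 38.1% of genes in females and 31.6% in males. It also had the highest mitochondrial share of its group in both sexes (24.0% in males and 19.7% in females) and the lowest erythroid level (434 and 411 CPM). In males its adipocyte markers stood at 2717 CPM (others 498 to 772), its leukocyte markers at 100.2 CPM (others 33.5 to 49.4) and its hepatocyte markers at 74.3 CPM (others 201.2 to 275.0). Its tubule markers stood at 7000 CPM (others 8458 to 9756) and its adrenal cortex markers at 17.55 CPM (others 0.73 to 3.80). Its podocyte markers stood at 63.3 CPM (others 43.8 to 56.8). In females its 2 podocyte markers stood at 107.1 CPM (others 50.2 to 59.2) and its hepatocyte markers, at 46.9 CPM, were the lowest. The part of these levels in its clock gene levels was not tested. Without it, an alternative chosen after the values were seen, 9 of the 10 genes lay above the Day 0 females at Day 2 (all genes tested: 22.3%), 8 at Day 3 (27.5%) and 7 at Day 5 (15.9%). In males the counts without it were 10 at Day 2 (20.3%), 9 at Day 3 (27.9%) and 6 at Day 5 (18.0%). The female median log2 fold change without it was 1.54 at Day 2, 1.36 at Day 3 and 1.46 at Day 5. Female values of 4 genes besides Dbp then moved by over 1.5 times on the fold scale at each day, to 3.001, 2.97 and 2.897 for Per2, 2.83, 2.51 and 2.5999 for Per3, 1.65, 1.57 and 1.53 for Nr1d2 and 3.47, 2.54 and 3.54 for Ciart. Without the library labelled male Day 5 mouse 1, 4 genes lay above the Day 0 males at Day 5 (all genes tested: 17.7%), and the median was 1.22. Only Hlf and Ciart moved by over 1.5 times on the fold scale without that library.

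**Figure D3:**
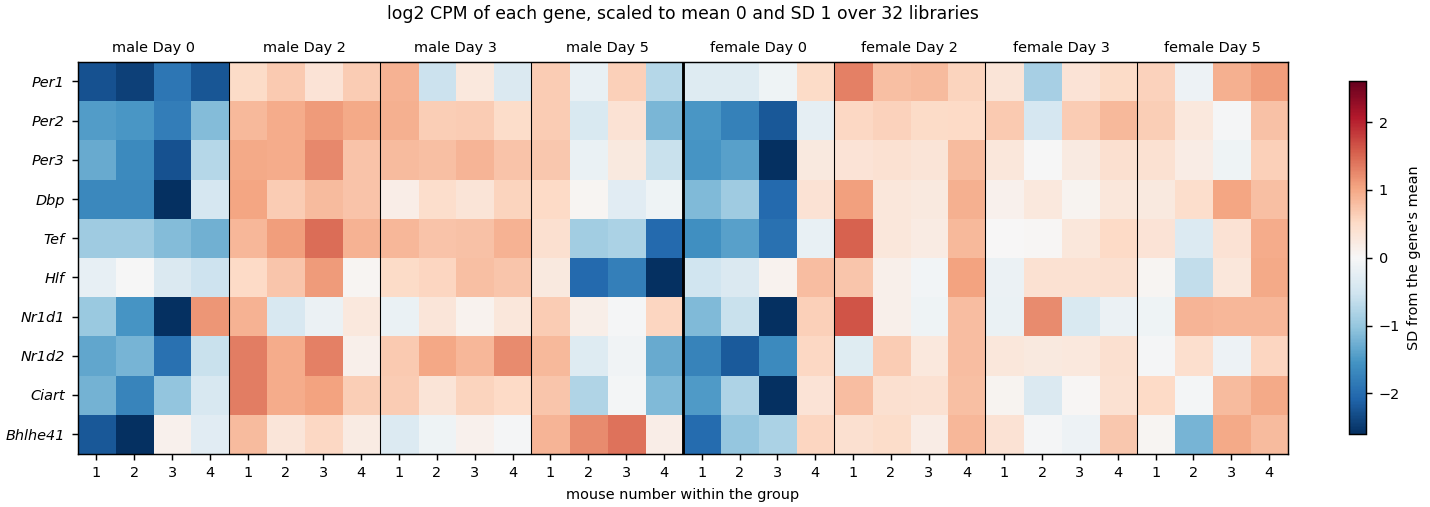
Log2 CPM of the 10 genes (rows) in the 32 libraries (columns, by sex, day and mouse number), each gene scaled to mean 0 and SD 1. Female Day 0 mouse 4 is close to the later days in most rows, and male Day 5 mouse 4 is close to Day 0 in most rows.

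Averaged over the 10 scaled genes, each library can be given 1 value in SD units. It ran from -1.63 to -0.65 in Day 0 males, 0.53 to 0.91 in Day 2 males, 0.42 to 0.53 in Day 3 males and -1.02 to 0.63 in Day 5 males. Females ran from -1.73 to 0.36 at Day 0, 0.28 to 0.81 at Day 2, 0.05 to 0.43 at Day 3 and -0.01 to 0.84 at Day 5. Day 3 males were the tightest group (SD 0.05) and Day 0 females the widest (SD 0.91). Against the mean of the other 9 genes over the 32 libraries, Pearson's r was 0.946 for Per3, 0.93 for Per2, 0.926 for Ciart, 0.899 for Dbp, 0.886 for Nr1d2, 0.885 for Tef, 0.701 for Per1, 0.637 for Nr1d1, 0.601 for Bhlhe41 and 0.42 for Hlf. With the mean of each group taken off, the same r ran from 0.424 for Bhlhe41 to 0.871 for Per3. These ran, without the library labelled male Day 5 mouse 1, from 0.417 for Hlf to 0.946 for Per3, and from 0.388 for Per1 to 0.865 for Per3 within groups. These are descriptions, since the libraries of a group share their day and the genes were chosen for moving together.

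Whether the levels moved on between the later days was tested with edgeR's quasi-likelihood test over all genes, called at a Benjamini-Hochberg adjusted p under 0.05. From Day 2 to Day 3, none of the 10 genes was called in either sex by edgeR (all genes tested: 0% in males and 0% in females), although all 10 had a negative log2 fold change in both. In males the median was -0.29, and 4 genes had an unadjusted p under 0.05, namely Per2, Dbp, Ciart and Bhlhe41, as did 1410 of 16232 genes. Male Dbp (-0.71 ± 0.16, adjusted p = 0.519) and Bhlhe41 (-0.46 ± 0.15, adjusted p = 0.559) lay below Day 2 without overlap. The DESeq2 Wald test called Dbp alone of the 10 in males (adjusted p = 0.0243) among 72 genes. In females the median was -0.32, and 3 genes had an unadjusted p under 0.05, namely Per1 (-0.67 ± 0.25), Dbp (-0.86 ± 0.29) and Ciart (-0.94 ± 0.28), as did 678 of 16974 genes. Female Per1 and Ciart lay below Day 2 without overlap. DESeq2 called none of the 10 in females, and 61 genes in all. Between these days the adipocyte and erythroid markers were lower in males without overlap (380.8 to 584.3 and 267 to 348 CPM, and 7.51 to 163.5 and 0.811 to 2.25 CPM). In females the adrenal cortex markers (2.87 to 4.26 and 25.2 to 2046 CPM) and leukocyte markers (16.7 to 25.3 and 28.5 to 34.6 CPM) were higher without overlap. Their part in the differences was not tested.

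From Day 3 to Day 5, edgeR called 2 of the 10 genes in males and none in females. In males Tef fell by 0.78 ± 0.25 on the log2 scale (adjusted p = 0.0369) and Bhlhe41 rose by 0.92 ± 0.23 (adjusted p = 0.0140), where 37.9% of all genes tested were called. Hlf (-1.39 ± 0.51, adjusted p = 0.0558) and Per3 (-0.74 ± 0.28, adjusted p = 0.0592) also lay below Day 3 without overlap but were not called. The male Day 5 libraries carried the high mitochondrial shares given above (42.5% in mouse 1 and 78.9% to 79.8% in the others), and the marker levels moved as well. In males the summed tubule markers ran from 5990 to 9193 CPM at Day 3 and from 2189 to 5742 CPM at Day 5. Of these, Slc34a1 (2988 to 4528 and 181 to 1870 CPM) and Lrp2 were lower without overlap. Aqp2 was higher (352 to 479 and 673 to 1347 CPM), and the other tubule markers overlapped. The adipocyte markers ran from 267 to 348 CPM and from 943 to 4961 CPM. The erythroid markers ran from 0.811 to 2.25 CPM at Day 3 and from 204.3 to 5501 CPM at Day 5. The leukocyte markers ran from 28.95 to 45.3 CPM and from 41.6 to 310.8 CPM, and the hepatocyte markers from 58.8 to 82.0 CPM and from 7.897 to 33.2 CPM. Of the hepatocyte markers, Ttr (51.9 to 75.6 and 3.55 to 27.2 CPM) and Serpina1c were lower without overlap, while Alb and Apoa1 overlapped. The part of these shares and levels in the difference was not tested. Without the library labelled male Day 5 mouse 1, 8 of the 10 genes were called, 7 of them lower at Day 5 (Per2 -1.11, Per3 -1.11, Dbp -0.76, Tef -1.09, Hlf -2.23, Nr1d2 -1.005 and Ciart -1.80) and Bhlhe41 higher (0.93), where 55.2% of all genes tested were called. Leaving out any of the other 7 mice left Tef uncalled (adjusted p from 0.0627 to 0.0967), while Bhlhe41 was called in all 8 such fits and lost in 1 fit over all 8 groups (adjusted p = 0.134). That fit called Tef (-0.86, adjusted p = 0.00693) and also Hlf (-1.47, adjusted p = 0.00408), where 25.7% of all genes tested were called. In females 7 genes had a positive and 3 a negative log2 fold change with a median of 0.10, and 0 were called by edgeR (all genes tested: 0%). Dbp (0.83 ± 0.25) and Ciart (1.02 ± 0.37) had an unadjusted p under 0.05, as did 1973 of 16794 genes, and DESeq2 called none of the 10 and 39 genes in all.

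**Figure D4:**
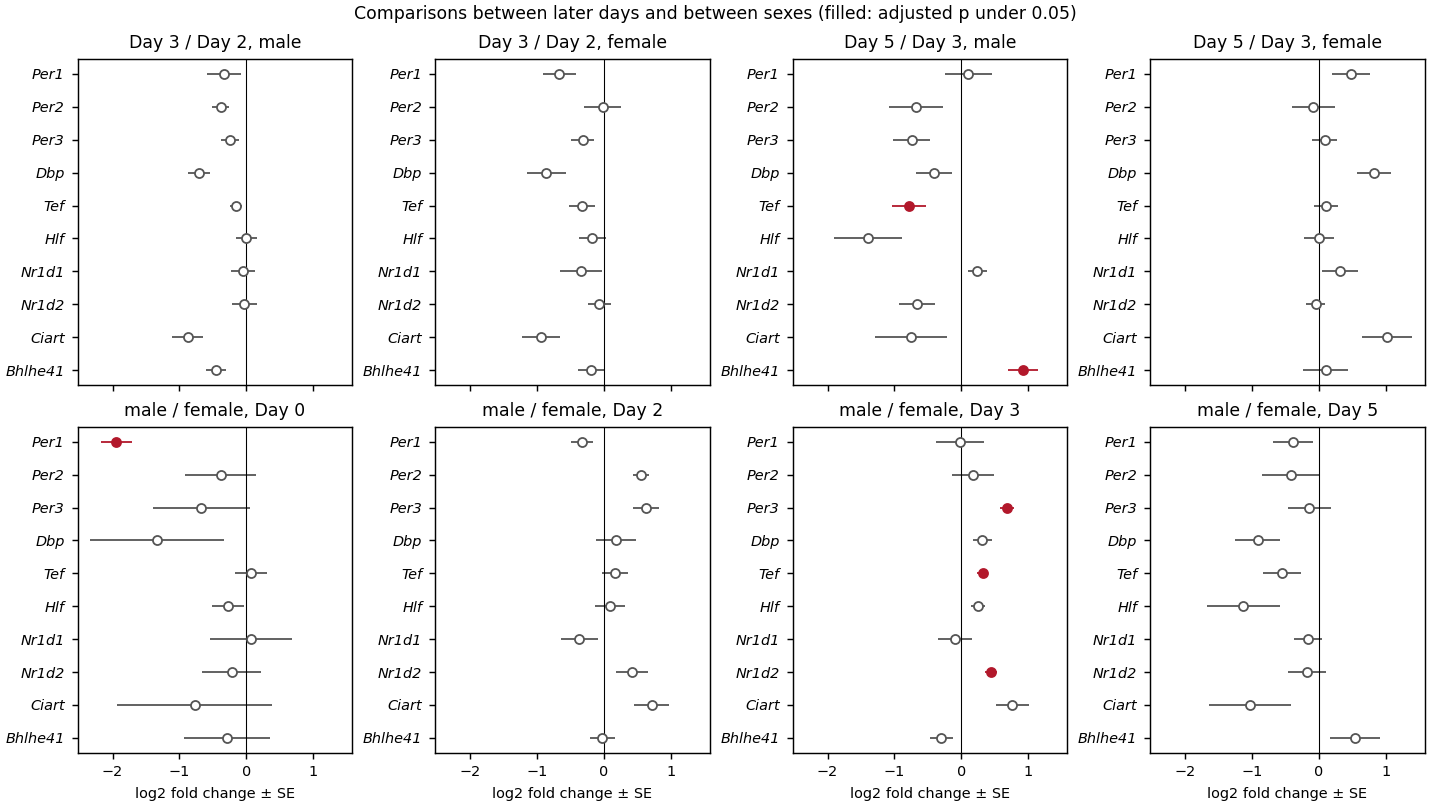
Log2 fold change of each gene (horizontal axis, bars of 1 SE) between later days in each sex and between males and females at each day, with 4 mice a group and filled points for an edgeR adjusted p under 0.05. Filled points are Tef and Bhlhe41 from Day 3 to Day 5 in males, Per1 at Day 0, and Per3, Tef and Nr1d2 at Day 3.

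Between the sexes at Day 0, edgeR called Per1 alone of the 10. It was lower in males by a log2 fold change of -1.94 ± 0.23 (adjusted p = 0.0191), all 4 males lay below all 4 females, and 0.449% of all genes tested were called. Without mouse 4 of both sexes the value was -1.72 (adjusted p = 0.0282). The call was lost without male mouse 1 (adjusted p = 0.108), male mouse 2 (0.118), female mouse 2 (0.0599) or female mouse 3 (0.0594), with values from -2.05 to -1.88 in these 4 fits. It was kept without female mouse 1, the Day 0 female with the most Y-linked reads (-2.03, adjusted p = 0.0435), and without male mouse 4, the Day 0 male with the most Xist reads (-1.92, adjusted p = 0.0406). The other 9 genes had log2 differences from -1.34 (Dbp) to 0.07 (Tef and Nr1d1) with standard errors from 0.24 (Tef) to 1.16 (Ciart). Of the marker lists, only the 5 skeletal muscle markers parted the sexes at Day 0 without overlap (0.35 to 1.79 CPM in males and 1.97 to 4.07 CPM in females), and their part was not tested.

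At Day 2, edgeR called none of the 10 between the sexes (all genes tested: 1.47%). Per2 (0.55 ± 0.12, adjusted p = 0.0586), Per3 (0.63 ± 0.19) and Ciart (0.71 ± 0.26) were higher in males at an unadjusted p under 0.05, as were 2485 of 16608 genes in either direction, and every male lay above every female for Per2. The DESeq2 Wald test called Per2 (adjusted p = 0.00141), as did edgeR without female Day 2 mouse 1 (adjusted p = 0.0380), among 5.12% and 2.52% of all genes. At Day 2, 4 marker lists parted the sexes without overlap. The leukocyte markers (25.55 to 57.0 CPM in males and 16.7 to 25.3 in females) and adrenal cortex markers (10.1 to 487.3 and 2.87 to 4.26) were higher in males. The podocyte markers (59.1 to 72.2 and 79.5 to 105.2) and skeletal muscle markers (0.281 to 0.703 and 2.43 to 4.77) were lower. Of the skeletal muscle markers, Myh1 alone parted the sexes by itself (0.029 to 0.130 and 1.79 to 4.62 CPM). The part of these lists in the difference was not tested. At Day 3, 3 of the 10 were called, all higher in males, where 21.3% of all genes tested were called. They were Per3 (0.68 ± 0.10, adjusted p = 0.00238), Nr1d2 (0.45 ± 0.088, adjusted p = 0.00810) and Tef (0.32 ± 0.083, adjusted p = 0.0252), and for each of them, as for Hlf (0.25 ± 0.11, adjusted p = 0.118), all 4 males lay above all 4 females. Per3 and Nr1d2 were called with any 1 mouse left out, Tef in 2 of 8 such fits (without female mouse 2 or 4), and none of the 3 in 1 fit over all 8 groups (adjusted p from 0.658 to 0.697). At Day 3 the adipocyte markers summed to between 267 and 348 CPM in males and between 457 and 768 CPM in females, and the erythroid markers to between 0.811 and 2.25 CPM and between 3.14 and 77.97 CPM, both without overlap. The adrenal cortex markers overlapped (3.76 to 61.9 and 25.2 to 2046 CPM). Their part in the sex difference at Day 3 was not tested. At Day 5, none was called by edgeR (all genes tested: 0.276%) or by DESeq2, which called 1055 genes, and Dbp alone of the 10 had an unadjusted p under 0.05 (-0.92 ± 0.34), as did 3094 of 15237 genes. Without the library labelled male Day 5 mouse 1, edgeR called Dbp (-1.20), Tef (-0.79), Hlf (-1.89) and Ciart (-1.96) as lower in males, where 17.0% of all genes tested were called. At Day 5 the adrenal cortex markers summed to between 509 and 1365 CPM in females and between 31.6 and 160.5 CPM in males, and the hepatocyte markers to between 44.5 and 107.0 CPM and between 7.897 and 33.2 CPM. With the library labelled male Day 5 mouse 1 left out, more levels parted the sexes without overlap. Tubule markers (2189 to 3186 CPM in males and 3751 to 6949 in females) and podocyte markers (12.2 to 17.6 and 31.2 to 93.1) were lower in males. Leukocyte markers (142.2 to 310.8 and 21.6 to 68.4) and adipocyte markers (2699 to 4961 and 486.5 to 1488) were higher. So was the mitochondrial share (78.9% to 79.8% and 9.302% to 77.9%). The part of all these in the sex difference at Day 5 was not tested.

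The difference between the sexes in their distance from Day 0 was tested as the interaction of sex and day. edgeR called none of the 10 genes at Day 2 (all genes tested: 0%), Day 3 (0.0114%) or Day 5 (0.243%). Per1 had an unadjusted p under 0.05 at each day, with a male distance larger by 1.601 ± 0.28 at Day 2 (adjusted p = 0.151), 1.93 ± 0.42 at Day 3 (adjusted p = 0.323) and 1.53 ± 0.41 at Day 5 (adjusted p = 0.105) on the log2 scale. Over all genes, 738 of 17467, 1252 of 17598 and 2568 of 16907 had an unadjusted p under 0.05 at Day 2, Day 3 and Day 5. The 3 comparisons share the Day 0 mice and with them the low male Day 0 level of Per1. The DESeq2 Wald test called Per1 at each day (adjusted p = 0.000396, 0.0123 and 0.0157), among 21, 82 and 684 genes. For Dbp, Ciart and Per3 the interaction was 1.498 ± 1.13, 1.49 ± 1.10 and 1.29 ± 0.78 at Day 2, and none of these 3 was distinguishable from 0 at this spread.

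The rest of the clock was followed in a list of 17 other clock genes, chosen with earlier results of these data known. Against Day 0, edgeR called 2 of the 16 tested as higher and 2 as lower in Day 2 males (all genes tested, both directions: 3.16%), 4 and 2 in Day 3 males (24.5%) and 3 and 2 in Day 5 males (19.2%). In females edgeR called 0 of 17 at Day 2 (1.93%), Day 3 (5.54%) and Day 5 (0.258%), with 8, 8 and 5 genes at an unadjusted p under 0.05. Without female Day 0 mouse 4, in fits of the lists added after their values were seen, edgeR called more of the list and more of all genes. The counts were 5 as higher and 3 as lower at Day 2 (all genes tested: 28.3%) and 8 and 2 at Day 3 (39.1%). At Day 5 they were 3 and 0 (12.6%). Bhlhe40, Cry2 and Csnk1e were among the higher at each day. Arntl, Npas2 and Nfil3 were lower at Day 2, and Arntl and Nfil3 at Day 3. Those called as higher in males, named here after their values were seen, were Bhlhe40 and Cry2 at Day 2, these and Rora and Timeless at Day 3, and Cry2, Csnk1e and Timeless at Day 5, and those called as lower were Arntl and Npas2 at each day. With 1 mouse left out in turn, Npas2 was called in 8 of 8 male fits at each day and Cry2 in 2 of 8 at each day. Arntl was called in 4, 8 and 2 such fits, and Bhlhe40 in 3 at Day 2 and 8 at Day 3. The share of all genes called in these fits ran from 0.079% to 14% at Day 2 and 4.18% to 38.6% at Day 3. At Day 5 it ran from 5.38% to 26%. The log2 fold change of Cry2 over these fits was 1.03 to 1.45, 0.76 to 1.16 and 0.78 to 1.15. Rora was called in 8 and Timeless in 3 of 8 at Day 3, and Timeless in 1 and Csnk1e in 3 of 8 at Day 5, where 0 to 2 genes were called as higher. With the library labelled mouse 1 left out, those called in Day 5 males were Csnk1e and Timeless as higher and Npas2 and Rora as lower (all genes tested: 26.0%), while Cry2 stood at 0.83 (adjusted p = 0.077) and Arntl at -0.99 (adjusted p = 0.0558). The medians of the list were 0.19, 0.18 and -0.14 in males and 0.12, 0.18 and 0.26 in females, beside 0.02 to 0.04 over all genes. Bhlhe40, the E-box repressor DEC1, was the only gene of the list whose Day 2 and Day 3 values lay outside the Day 0 range in both sexes. It stood at 28.8 ± 8.11 CPM (mean ± SD, n = 4) in Day 0 males and 84.4 ± 9.0, 92.8 ± 11.4 and 46.5 ± 21.5 at the later days, and at 40.9 ± 19.6, 89.03 ± 14.9, 96.5 ± 20.2 and 79.5 ± 14.8 in females. Its male log2 fold change was 1.56 ± 0.22 at Day 2 (adjusted p = 0.0207) and 1.69 ± 0.21 at Day 3 (adjusted p = 0.00470).

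Cry2, a cryptochrome and partner of the period proteins, was called as higher in males at each later day, by 1.20 ± 0.23 (adjusted p = 0.0402), 0.91 ± 0.22 (adjusted p = 0.0252) and 0.92 ± 0.28 (adjusted p = 0.0444). Its mean level over the 4 days was 13.9, 31.7, 26.1 and 25.2 CPM in males and 15.2, 31.3, 25.1 and 29.5 CPM in females. Day 2 females lay above Day 0 females without overlap, and Cry2 was called in females only without Day 0 mouse 4. Arntl and Npas2, the activators that the REV-ERB receptors repress, were called as lower in males with all mice and in females only without Day 0 mouse 4, and were chosen for description after their values were seen. Arntl stood at 19.1, 20.3, 11.9 and 8.802 CPM in Day 0 males and 0.907, 2.75, 1.57 and 1.59 in Day 2 males, and fell by 3.12 ± 0.40 on the log2 scale (adjusted p = 0.0149). It then stood at 4.12 to 6.305 CPM at Day 3 and 3.19 to 8.002 CPM at Day 5, which is 1.53 ± 0.29 (adjusted p = 0.0119) and 1.24 ± 0.37 (adjusted p = 0.0437) below Day 0. Female Arntl ran from 5.83 to 12.1 CPM at Day 0 to 2.85 to 6.12 CPM at Day 2, 4.104 to 6.85 CPM at Day 3 and 3.69 to 7.58 CPM at Day 5, with overlap. Npas2 stood at 22.7, 21.96, 10.3 and 13.5 CPM in Day 0 males and 1.23, 0.809, 0.643 and 1.22 in Day 2 males, and fell by 4.10 ± 0.35 on the log2 scale (adjusted p = 0.00282), by 2.14 ± 0.26 at Day 3 (adjusted p = 0.00425) and by 2.84 ± 0.47 at Day 5 (adjusted p = 0.00899). Female Npas2 ran from 3.56 to 10.2 CPM at Day 0 to 1.77 to 3.54 CPM at Day 2, below Day 0 without overlap, and to 2.14 to 4.91 CPM at Day 3 and 1.78 to 5.17 CPM at Day 5, with overlap. The female log2 fold changes at Day 2, Day 3 and Day 5 were -1.04, -0.79 and -0.69 for Arntl (adjusted p from 0.0954 to 0.348) and -1.01, -0.91 and -0.85 for Npas2 (adjusted p from 0.145 to 0.392). The interaction of sex and day was called for neither gene by edgeR, and was largest for Npas2 at Day 2 (-3.13 ± 0.54, adjusted p = 0.151).

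A list of 11 rhythmic output genes, chosen in the same way and all tested except Rgs16 in Day 5 males, held 3 called genes in Day 2 males, 8 in Day 3 males and 1 in Day 5 males as higher, against 0, 0 and 1 as lower. In females 1 gene was called as higher at Day 2 and at Day 3 and 0 at Day 5, and 0 as lower, with 5, 4 and 4 genes at an unadjusted p under 0.05. The gene called in females was Wee1, a kinase that delays mitosis, at 1.77 ± 0.32 at Day 2 (adjusted p = 0.0305) and 1.57 ± 0.38 at Day 3 (adjusted p = 0.0495). With 1 mouse left out in turn, the female call was kept in 3 of 8 fits at Day 2 and 2 of 8 at Day 3. Without female Day 0 mouse 4 it was joined by Coq10b, Nampt and Tspan4 at each later day, 4 genes in all. Tsc22d3, a glucocorticoid-induced gene, was called as higher in males at each later day (in 3, 1 and 8 of 8 fits with 1 mouse left out), and Por, the electron donor of cytochrome P450 enzymes, was the gene called as lower in Day 5 males (in 3 of 8). In males Wee1 was called at 1.70 ± 0.17 at Day 2 (adjusted p = 0.00477) and 1.21 ± 0.17 at Day 3 (adjusted p = 0.00586), and in 8 of 8 fits with 1 mouse left out at both days. Over these fits the count called as higher in males ran from 1 to 7 at Day 2 and from 1 to 9 at Day 3. It stayed at 1 at Day 5 (Tsc22d3). The 7 and the 9 came without male Day 0 mouse 3, where 14% and 38.6% of all genes tested were called. In the fits with 1 called, that share was 0.079% to 0.123% at Day 2 and 4.18% to 6.56% at Day 3. At Day 5 the share was 5.38% to 26%. The Day 3 fit without male Day 0 mouse 3 also called Dtx4 as lower. The medians of the list were 0.82, 0.63 and 0.04 (-0.13 without the library labelled male Day 5 mouse 1) in males and 0.62, 0.53 and 0.60 in females. For the fits with all mice and those without female Day 0 mouse 4, the shares of all genes called are those given above.

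**Figure D5:**
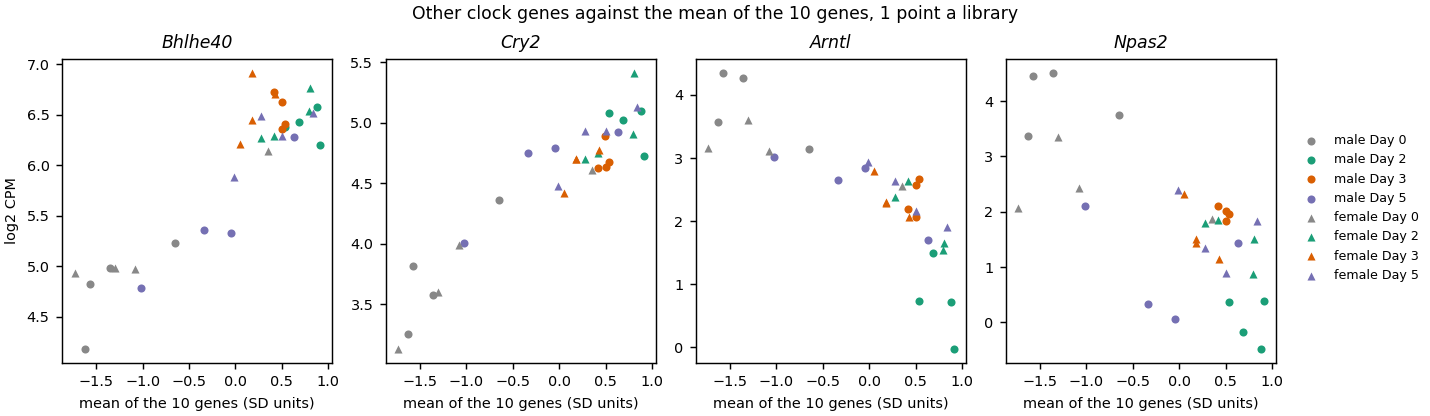
Log2 CPM of Bhlhe40, Cry2, Arntl and Npas2 (vertical axes) against the mean of the 10 scaled genes (horizontal axes, SD units), with 1 point for each of 32 libraries, colours for days, circles for males and triangles for females. Bhlhe40 and Cry2 are higher where the 10 genes are high, Arntl and Npas2 lower, and within Day 0 the library of female mouse 4 lies with the later days.

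The genes whose pattern was most like that of the 10 were found by Pearson's r with the mean of the 10 over the 32 libraries, among 15035 protein-coding genes. The 5 highest were Cry2 (0.936), Bhlhe40 (0.917), Prdm2 (0.916), a histone methyltransferase gene, Cep250 (0.902) and Odf2 (0.888), genes of centrosome and cilium proteins. The 5 lowest were Emg1 (-0.873), Mien1 (-0.865), Khdrbs3 (-0.862), Ptges3 (-0.858) and Mrpl36 (-0.857). By Spearman's rho, Cry2 (0.822), Cep250 (0.822), Emg1 (-0.805) and Ptges3 (-0.804) stayed within the 10 highest or lowest ranks, while Bhlhe40 (0.732), Prdm2 (0.780), Odf2 (0.621), Khdrbs3 (-0.669), Mien1 (-0.562) and Mrpl36 (-0.627) did not. Arntl, named after its value was seen, stood at -0.82 by Pearson's r and at -0.926 by rho, the lowest rho of the genes compared. With the mean of each group taken off, the 5 highest were Epb41l3 (0.893), Palld (0.880), Slc5a12 (0.878), Slc7a8 (0.874) and Auts2 (0.865), of which Slc5a12 and Slc7a8 are transporters of the proximal tubule. Cry2 (0.851) and Bhlhe40 (0.844) were close behind. Without the library labelled male Day 5 mouse 1, Cry2 (0.935), Bhlhe40 (0.918), Prdm2 (0.915) and Cep250 (0.907) were the 4 highest and Emg1 (-0.871) the lowest by Pearson's r, while Odf2 and Mrpl36 left the 5 highest and lowest. Within groups Epb41l3 (0.895), Slc5a12 (0.865) and Palld (0.856) then stayed among the 5 highest, and Slc7a8 (0.846) and Auts2 (0.834) did not. Libraries of a group share their day and sex, so these values are descriptions without a p.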

How the data were processed

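Kidney RNA of 32 mice was measured by paired-end sequencing, 4 mice in each of 8 groups taken from the labels, with nothing saying that samples of a group are other than separate mice. The deposited values are whole-number read counts per gene that the authors made with HTSeq, per their processing notes, which name no version; the genome coordinates beside the counts are those of GRCm38, while the notes also name GRCm39. The strand setting and the hour of tissue collection are not given in the sources used here. The 10 genes and the gene lists were chosen with earlier results of these data known.

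Counts were used as deposited. For each comparison, only the groups compared were fitted with edgeR 4.0.16 (limma 3.58.1, R 4.3.3): genes were filtered with filterByExpr, libraries were scaled by TMM, and the robust quasi-likelihood test was adjusted by Benjamini-Hochberg over all genes tested, with a call at an adjusted p under 0.05. Levels are CPM, counts scaled to library size with TMM over the 32 libraries, and log2 CPM used a prior count of 2. P-values measure the spread between mice. DESeq2 1.42.0 (Wald test), other filters and scalings, the mouse number as a block, leaving out each mouse, and the study's threshold of an absolute log2 fold change over 1.5 were alternatives. The scripts were tested on simulated data. Genes outside the 10 were named where every Day 2 and Day 3 mouse of both sexes lay outside the Day 0 range, or by the 5 highest and lowest correlations, and others were chosen after their values were seen. Promoter windows are from RefSeq (GRCm38.p6) and were searched with Python 3.11.15. Plots were drawn with matplotlib 3.10.9. Depth sets the precision at low counts, with a floor of 3 counts.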

Additional observations from a re-analysis of the deposited data

Results flagged for a closer look

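In 80 groups of 4 mice, 1 for each of the 10 genes in each group, 6 held a mouse whose distance from its nearest neighbour was beyond Dixon's critical share of the group's range, where chance gives about 1 in 20. Female Day 3 mouse 2 accounted for 3 of them, with Per1 at 32.5 CPM (others 68.7 to 75.6 CPM), Per2 at 11.6 CPM (others 30.4 to 35.7 CPM) and Nr1d1 at 109.9 CPM (others 49.8 to 55.9 CPM). The same mouse held 9517 CPM of the tubule markers (others 4479 to 5747 CPM), 77.97 CPM of the erythroid markers (others 3.14 to 7.31 CPM) and 341.0 CPM of the hepatocyte markers (others 46.9 to 66.4 CPM), and their part in these values was not tested. Female Day 3 mouse 1 had the low value of Hlf at 63.6 CPM (others 84.9 to 85.4 CPM). Female Day 2 mouse 4 had the high value of Per3 at 41.0 CPM (others 26.9 to 28.2 CPM). Female Day 5 mouse 1 had the low value of Nr1d1 at 57.0 CPM (others 91.6 to 92.6 CPM). The 6 values came from 4 mice, all female.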

How the results depend on the processing

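Each result that answers a comparison was recomputed under each other setting. Of these recomputed values, 121 were scored as the same and 13 as moved. A count within 1.5 times, or a median shifted by less than the spread between mice, was scored as the same. The count in males from Day 3 to Day 5 moved in 3 of 8 settings. Between the sexes at Day 3, DESeq2 and the block on mouse number each called Ciart as well. They called 25.9% and 17.6% of all genes, and both were scored as the same. The DESeq2 Wald test called 1 of the 10 genes in males from Day 2 to Day 3 (Dbp), 5 from Day 3 to Day 5 (all genes tested: 45.3%), 1 between the sexes at Day 2 (Per2), and 1 for the difference between the sexes in the distance from Day 0 at each of Day 2, Day 3 and Day 5 (Per1). The cause was not tested. A fit over all 8 groups called Tef (-0.86, adjusted p = 0.00693) and Hlf (-1.47, adjusted p = 0.00408) but not Bhlhe41 in males from Day 3 to Day 5 (all genes tested: 25.7%). It called 0 between the sexes at Day 3, 1 at Day 5 (Hlf, adjusted p = 0.0388, with 9.69% of all genes), and 1 for the difference between the sexes in Day 5 against Day 0 (Per1, adjusted p = 0.0257, with 7.55%). Requiring an absolute log2 fold change over 1.5 as well left 0 in males from Day 3 to Day 5 and 0 between the sexes at Day 3, by construction.

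With the mouse number as a replicate block, 4 genes were called in males from Day 3 to Day 5 (Per3, Tef, Hlf and Bhlhe41, with 28.8% of all genes) and 2 between the sexes at Day 0 (Per1, and Dbp at -1.39 ± 0.22, adjusted p = 0.0392, with 1.31%), and no other count moved by over 1.5 times. No source says that the numbers pair the mice. Deviations of same-numbered mice correlated between -0.415 and 0.481, and in 0 of 14 comparisons did every pair exceed 0.1 (0.272, -0.074, 0.444 and 0.481 between the sexes at Day 0).

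With 1 mouse left out, the median against Day 0 ran from 2.00 to 2.14, 1.73 to 1.94 and 1.22 to 1.95 in males and from 0.94 to 1.54, 0.67 to 1.36 and 0.75 to 1.46 in females (Day 2, Day 3 and Day 5). The count of called genes ran from 0 to 0 from Day 2 to Day 3 in both sexes and from Day 3 to Day 5 in females, and from 1 to 8 from Day 3 to Day 5 in males, the highest without the library labelled male Day 5 mouse 1 (22.3% to 31.4% of all genes in the fits with 1 gene called, 55.2% in that with 8). Between the sexes the count ran from 0 to 1 at Day 0, 0 to 1 at Day 2 and 2 to 4 at Day 3. At Day 3, 11.1% to 15.9% of all genes were called in the fits with 2, and 34.6% and 17.0% in those with 4. At Day 5 the count ran from 0 to 4 (17.0% in the fit with 4). For the difference between the sexes it ran from 0 to 0, 0 to 0 and 0 to 1. That 1 was Hlf at Day 5 (-1.70, adjusted p = 0.0458, with 6.74% of all genes), without the library labelled male Day 5 mouse 1. Tef in Day 5 males against Day 0 ran from -0.0017 without that library to 0.4538, and Hlf in Day 5 females against Day 0 from -0.0884 without female Day 5 mouse 4 to 0.3975. Leaving out mouse 4 of both sexes at Day 0, chosen after the data were seen, gave counts of 1 between the sexes at Day 0 and 0, 0 and 0 for the differences. Ciart, with 0 to 6 counts in its lowest libraries, is the gene limited most by depth.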
